A study of Homo sapiens with 54 samples.

Results

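Interferon-stimulated genes are the genes that cells switch on when interferon binds its receptors, and 39 of them were followed here by symbol, all found among the 27470 genes of the deposited table. Type I interferons signal through the kinases JAK1 and TYK2 to a complex with STAT2 and IRF9, which binds an interferon-stimulated response element (ISRE) in promoters and starts transcription of antiviral genes. In tumour cells the same genes are known to respond to DNA that leaks from damaged nuclei into the cytosol and is sensed by the cGAS-STING pathway, which is why they are often read out after PARP inhibitors and platinum drugs. The 39 members were grouped by what their proteins do. There were the RNA sensors IFIH1, DDX58 and DDX60, and the transcription factors STAT2, IRF1, IRF7 and IRF9. The RNA-binding proteins were IFIT1, IFIT2, IFIT3 and IFIT5, and the oligoadenylate synthetase family OAS1, OAS2, OAS3 and OASL. Other antiviral effectors were MX1, MX2, RSAD2, CMPK2, ISG20, SAMD9, SAMD9L, TRIM22 and BST2. IFITM1, IFITM2 and IFITM3 are membrane proteins. The ubiquitin-like modifier ISG15 was grouped with its conjugation and removal enzymes UBE2L6, HERC5 and USP18, and with HERC6, a paralogue of HERC5. The interferon-induced genes IFI6, IFI27, IFI35, IFI44, IFI44L, XAF1 and EPSTI1 formed the last group.

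RNA came from 2 established triple negative breast cancer (TNBC) lines, SUM1315, which carries mutant BRCA1, and MDA-MB-468, whose BRCA1 is wild type, in 18 conditions of 3 libraries each, 54 libraries in all. In each line, parental cells were left as control or treated overnight with the PARP inhibitor olaparib (3 µM in MDA-MB-468, 8 µM in SUM1315), with cisplatin (CDDP; 1 or 2.5 µM in MDA-MB-468, 2 or 4 µM in SUM1315), or with olaparib and either CDDP dose. Sample titles give the higher CDDP dose of MDA-MB-468 as 2.5 µM, which is used here, while the series' design text gives 2 µM, and the protocol text writes mM where the titles write µM. Isogenic olaparib-resistant (OlaR) cells had been raised in rising olaparib and were kept in it without a break, at 15 µM (MDA-MB-468) or 25 µM (SUM1315), and were measured as such or with either CDDP dose. OlaR cells therefore differed from olaparib-treated parental cells in olaparib dose, in length of exposure and in selection, and these cannot be told apart. Which libraries shared a sequencing batch is not stated, so a batch difference between OlaR and parental libraries cannot be told apart from them either. Each line has 1 OlaR line, the sources do not say whether it is a clone or a pool, and nothing says that the 3 libraries of a condition came from separate cultures, so p-values measure the spread between these libraries, which may be technical.

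The authors deposited, for each gene, read numbers brought to a common library size, here called adjusted reads. QuantSeq reads 1 tag near the 3′ end of each transcript, so adjusted reads need no division by gene length. A member was called higher or lower when its adjusted p in the limma test was at most 0.05, after testing all genes with at least 10 adjusted reads in at least 3 libraries of the line. Fold changes are on the log2(adjusted reads + 1) scale, which understates those of genes with few reads. Of the 39 members, 38 passed this filter in SUM1315 (all but CMPK2) and 32 in MDA-MB-468, where OAS2, MX2, RSAD2, CMPK2, IFI27, IFI44L and XAF1 stayed below it, with no library above 6.29 adjusted reads of any of these (IFI27). Parental libraries held 4977284 to 9268162 reads and OlaR libraries 2070301 to 4676284, so low members were measured less precisely in OlaR cells. SUM1315 control replicate 3 stood apart from control replicates 1 and 2 (chi-square per degree of freedom 15.2 and 20.1, against 3.59 between those). The 2 µM CDDP libraries of SUM1315 differed by up to 22.1. Counts of called genes resting on these or on control replicate 3 are also given without them. SUM1315 olaparib replicate 3 differed from olaparib replicates 1 and 2 by 8.72 and 8.73, against 2.90 between those. Epithelial markers summed to 6621 to 13429 adjusted reads in MDA-MB-468 and to 1178 to 4302 in SUM1315, and mesenchymal markers to 72.6 to 148 and to 10005 to 15449. Of 7 leukocyte markers, PTPRC stayed at or below 6.97 adjusted reads in any SUM1315 library, and the list's sum in SUM1315 was carried by CD14, at 423 ± 31.6 (mean ± SD, 3 libraries) in control, 66.96 ± 4.74 in olaparib and 24.9 ± 4.58 in OlaR cells. In bulk RNA, fewer cells expressing a gene and less RNA per cell cannot be told apart.

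The promoter letters of the members were searched for short patterns. RefSeq windows of 300 bases, from 250 before to 50 after each start (build GRCh38.p14), were at hand for 31 of the 39 members, with DDX58 under its current name RIGI. IRF7, IFIT2, OAS2, OASL, MX2, TRIM22, IFITM2 and USP18 had none. The ISRE core (GAAA, 2 bases of any kind, then GAAA), searched on both strands with overlapping matches kept, was found in at least 1 window of 20 of the 31 members (64.5%), against 4.38% of the 27305 genes with a window. Counted by window, since some genes have several, it was in 24 of 41 windows of members (58.5%) and in 3.57% of all 35116. The letters TTCNNNGAA (GAS, the gamma-activated sequence) were found in 10 of 31 members (32.3%), against 9.38% of genes. The 180 bases before the start are shown for 5 members that fell in OlaR SUM1315 cells, for ISG15 and ISG20, which were not called lower there against olaparib, and for IFITM3, the most abundant member, each 5′ to 3′ on the gene's strand with the ISRE core in capitals.
HERC5 (chr4:88456939-88457118, plus strand): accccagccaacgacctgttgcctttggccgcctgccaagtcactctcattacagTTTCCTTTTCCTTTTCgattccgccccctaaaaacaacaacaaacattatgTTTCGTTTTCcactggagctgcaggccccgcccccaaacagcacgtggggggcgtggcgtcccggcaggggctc
IFI44L (chr1:78620268-78620447, plus strand): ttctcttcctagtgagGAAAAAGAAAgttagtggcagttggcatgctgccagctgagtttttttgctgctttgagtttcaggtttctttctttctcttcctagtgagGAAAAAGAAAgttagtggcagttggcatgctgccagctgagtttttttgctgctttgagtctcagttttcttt
DDX60 (chr4:168318753-168318932, minus strand): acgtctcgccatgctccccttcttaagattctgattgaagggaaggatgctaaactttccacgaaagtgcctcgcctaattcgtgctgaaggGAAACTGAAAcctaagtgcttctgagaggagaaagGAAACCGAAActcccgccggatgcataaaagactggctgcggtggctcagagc
IFIT3 (chr10:89327817-89327996, plus strand): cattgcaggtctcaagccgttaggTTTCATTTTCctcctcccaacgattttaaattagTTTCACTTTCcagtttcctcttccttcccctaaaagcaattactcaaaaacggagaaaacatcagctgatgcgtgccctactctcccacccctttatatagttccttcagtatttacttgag
EPSTI1 (chr13:42992242-42992421, minus strand): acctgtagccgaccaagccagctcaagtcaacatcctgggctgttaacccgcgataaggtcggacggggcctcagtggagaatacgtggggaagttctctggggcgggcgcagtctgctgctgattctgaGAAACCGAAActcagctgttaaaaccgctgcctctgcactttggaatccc
ISG15 (chr1:1013317-1013496, plus strand): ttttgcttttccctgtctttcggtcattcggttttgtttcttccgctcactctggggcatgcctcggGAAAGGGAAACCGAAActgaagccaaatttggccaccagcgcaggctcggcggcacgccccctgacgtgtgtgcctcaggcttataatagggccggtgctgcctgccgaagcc
ISG20 (chr15:88638836-88639015, plus strand): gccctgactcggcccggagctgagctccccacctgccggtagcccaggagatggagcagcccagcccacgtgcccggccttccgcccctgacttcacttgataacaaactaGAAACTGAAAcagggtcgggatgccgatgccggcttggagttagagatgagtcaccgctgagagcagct
IFITM3 (chr11:320861-321040, minus strand): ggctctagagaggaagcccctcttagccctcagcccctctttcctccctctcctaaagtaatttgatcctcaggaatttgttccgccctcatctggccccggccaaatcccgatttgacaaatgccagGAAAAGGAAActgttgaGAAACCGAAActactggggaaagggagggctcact
In HERC5 the matches lie at 125, 119 and 74 bases before the start and the first pair overlaps. In ISG15 the pair at 113 and 107 overlaps, and EPSTI1 and ISG20 have a single match. A match is a run of letters, not a measured binding site. The sequences shown were picked from members with an ISRE core, and 11 members with a window had no match to it. Against olaparib, 17 of 20 tested members with the core and 8 of 10 without it were called lower in OlaR SUM1315 cells (25.7% of all genes were). After olaparib, 9 of 20 with it and 3 of 10 without it were called higher in parental SUM1315 cells (18.9% of all genes). With the GAS letters the counts were 7 of 10 with a match and 18 of 20 without one lower in OlaR cells, and 2 of 10 and 10 of 20 higher after olaparib.

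**Figure D1:**
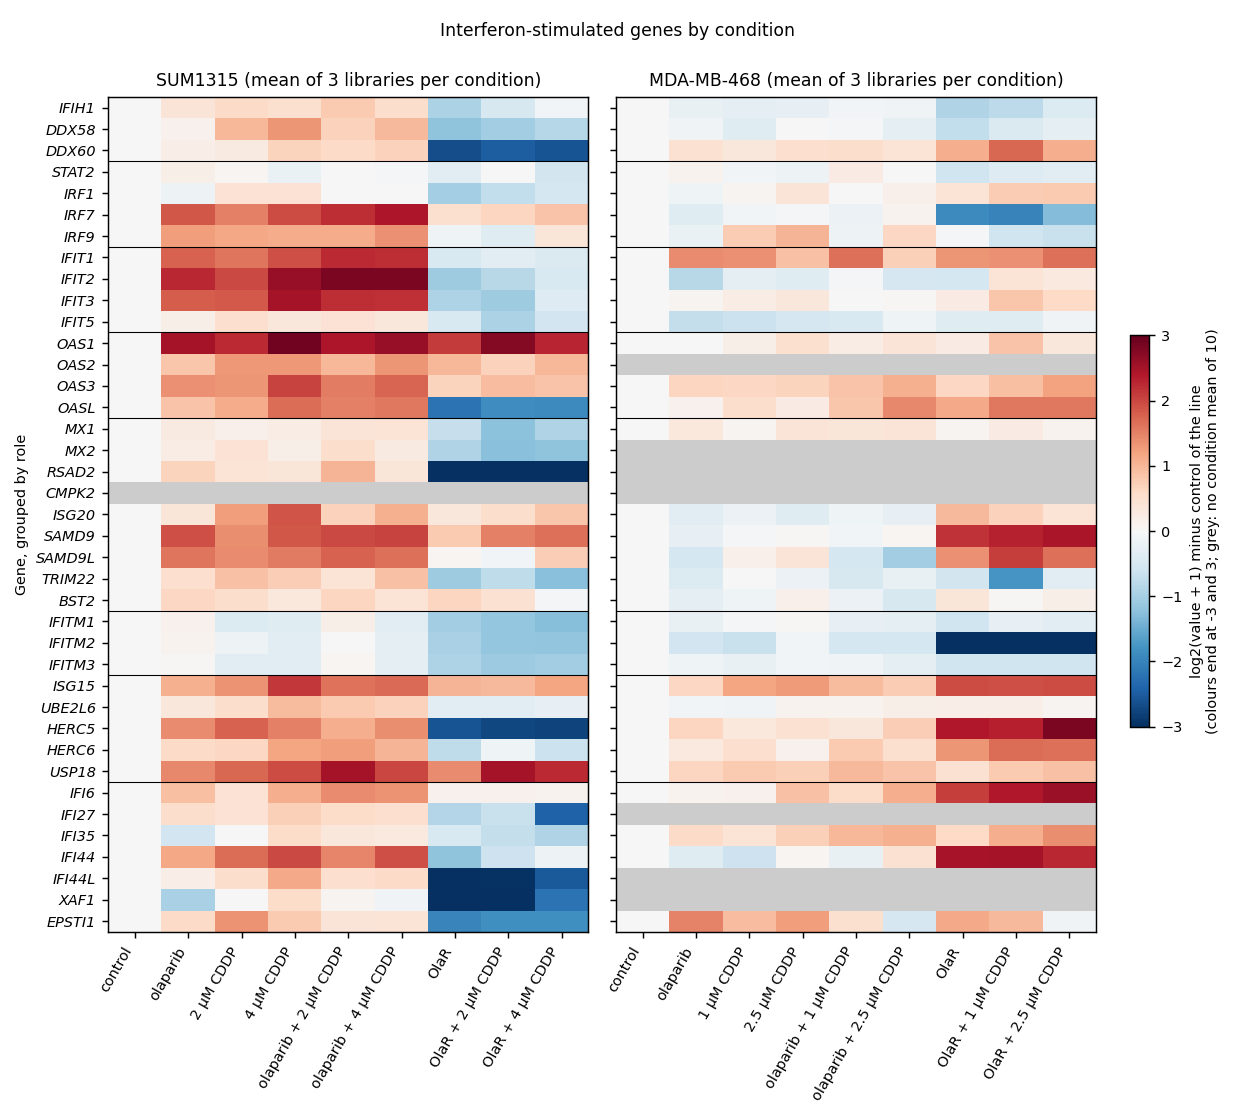
Mean log2(adjusted reads + 1) of each member in each condition minus the control of its line (colour; red higher, blue lower, ends at -3 and 3), with members in rows grouped by role and the 9 conditions of each line in columns; grey rows had no condition mean of 10 adjusted reads. In SUM1315 the treated parental columns are mostly red and the OlaR columns mostly blue, while in MDA-MB-468 the OlaR columns hold both red (SAMD9, IFI44, HERC5, IFI6, ISG15) and blue (IFITM2, IRF7).

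The first comparison asked what a night in olaparib does to these genes in parental SUM1315 cells. Of the 38 members tested, 16 rose and 2 fell, where 18.9% of all 13133 tested genes were called higher and 17.1% lower. The members that rose by at least 2-fold numbered 11 (4.99% of all genes did), and the median log2 fold change was 0.58 over members and -0.00255 over all genes tested. Without SUM1315 control replicate 3, 18 members were called higher and 0 lower. HERC5 lost its call in that fit, so some members given below as not called with all libraries were called higher in it. The sum over members without the abundant IFITM genes and BST2 went from 3555 ± 152 adjusted reads (mean ± SD, 3 libraries) in control to 5503 ± 203 with olaparib. Of the cell type markers, 2 of 6 tested epithelial ones rose and 3 fell (summed 1938 to 2070 adjusted reads in control and 1263 to 1282 with olaparib). Of the mesenchymal ones 2 of 5 fell, and 1 of 2 tested leukocyte ones fell (summed 412 to 479 and 67.3 to 73.9). The counts were the same without control replicate 3, and the part of these markers in the result was not tested.

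The IFIT proteins bind foreign RNA and hold back its translation, and 3 of the 4 genes rose. IFIT2 held 53.8, 57.9 and 56.9 adjusted reads in the 3 control libraries and 281, 265 and 276 with olaparib (log2 fold change 2.27 ± 0.16 (SE), adjusted p = 4.65e-13). IFIT3 held 112, 104 and 134 in control and 405, 378 and 447 with olaparib, a log2 fold change of 1.81 ± 0.15. IFIT1 went from 36.97, 28.01 and 35.1 to 124, 96.5 and 127, a log2 fold change of 1.77 ± 0.33. In each of these genes, every olaparib library lay above every control library (the groups did not overlap, in either direction, for 44.8% of all genes). IFIT5, the fourth of the family, was not called (0.17 ± 0.22, adjusted p = 0.582). IFIT1, IFIT2, IFIT3 and IFIT5 lie in a cluster on chromosome 10, from 89302046 (IFIT2) to 89420997 (IFIT5) in GRCh38.p14.

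The oligoadenylate synthetases, which make the messenger that activates RNase L, all rose. OAS1 was the member with the largest log2 fold change (log2 fold change 2.50 ± 0.58 (SE), adjusted p = 0.000852), at 1.796, 0.0137 and 3.08 adjusted reads in control and 17.9, 4.598 and 18.99 with olaparib, a low level with wide spread. OAS3 went from 53.7, 54.9 and 74.3 to 162, 157 and 152, with a log2 fold change of 1.36 ± 0.20. OASL, a family member without synthetase activity, went from 184 ± 4.38 to 335 ± 6.69 adjusted reads, and OAS2 from 67.4 ± 12.04 to 121 ± 26.6. The synthetase genes OAS1, OAS2 and OAS3 lie in a cluster on chromosome 12.

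Among the antiviral effectors, SAMD9, a restriction factor for poxviruses, held 63.02, 55.9 and 57.9 adjusted reads in control and 195, 224 and 269.8 with olaparib (log2 fold change 1.93 ± 0.18 (SE), adjusted p = 5.73e-10). Its paralogue and chromosome 7 neighbour SAMD9L held 20.7, 20.7 and 17.6 and 58.8, 59.6 and 65.95, a log2 fold change of 1.60 ± 0.31. BST2 (tetherin), which holds budding virions on the cell surface, rose by less, from 1864, 1751 and 1721 to 3004, 3029 and 2257 (0.62 ± 0.10). MX1 and MX2, dynamin-like GTPases with antiviral activity, were not called, nor were RSAD2, ISG20 and TRIM22, with log2 fold changes of 0.22 to 0.66.

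IRF7, the transcription factor that amplifies type I interferon production, held 8.74, 22.6 and 12.4 adjusted reads in control and 36.1, 65.3 and 59.96 with olaparib (log2 fold change 1.87 ± 0.32 (SE), adjusted p = 1.83e-05). STAT2 and IRF1 were not called, and IRF9, at 8.42 ± 5.57 and 19.5 ± 11.1 adjusted reads, missed the threshold (adjusted p = 0.0767). None of the 3 RNA sensors was called, with log2 fold changes of 0.12 (DDX58) to 0.38 (IFIH1).

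ISG15 held 235, 237 and 246 adjusted reads in control and 585, 423 and 505 with olaparib (log2 fold change 1.06 ± 0.13 (SE), adjusted p = 7.77e-08). HERC5, the ligase that attaches ISG15 to new proteins, held 51.7, 52.6 and 14.7 and 122, 92.7 and 73.9 (1.43 ± 0.42, adjusted p = 0.008), with control replicate 3 far below the other control libraries; without it, HERC5 was not called (adjusted p = 0.132). UBE2L6, the conjugating enzyme, rose by 0.35 ± 0.13 on the log2 scale and was not called when any of 5 libraries was left out. USP18, the protease that takes ISG15 off again, was at 5.42, 1.08 and 7.198 and 13.996, 23.7 and 4.99 and was not called (adjusted p = 0.072). IFI44 and IFI6 rose, by 1.16 ± 0.20 and 0.91 ± 0.17 on the log2 scale. IFI35 and the pro-apoptotic XAF1 were the members that fell, by 0.57 and 0.97 on the log2 scale, and neither was called without control replicate 3. HERC6, IFI27, IFI44L and EPSTI1 were not called, with log2 fold changes of 0.19 (IFI44L) to 0.58 (HERC6). The IFITM genes, whose proteins stop viruses at endosomal membranes, did not pass the test. IFITM3 held 7806, 7221 and 10750.0 adjusted reads in control and 8557, 8565 and 8995 with olaparib, the highest control value being that of replicate 3.

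**Figure D2:**
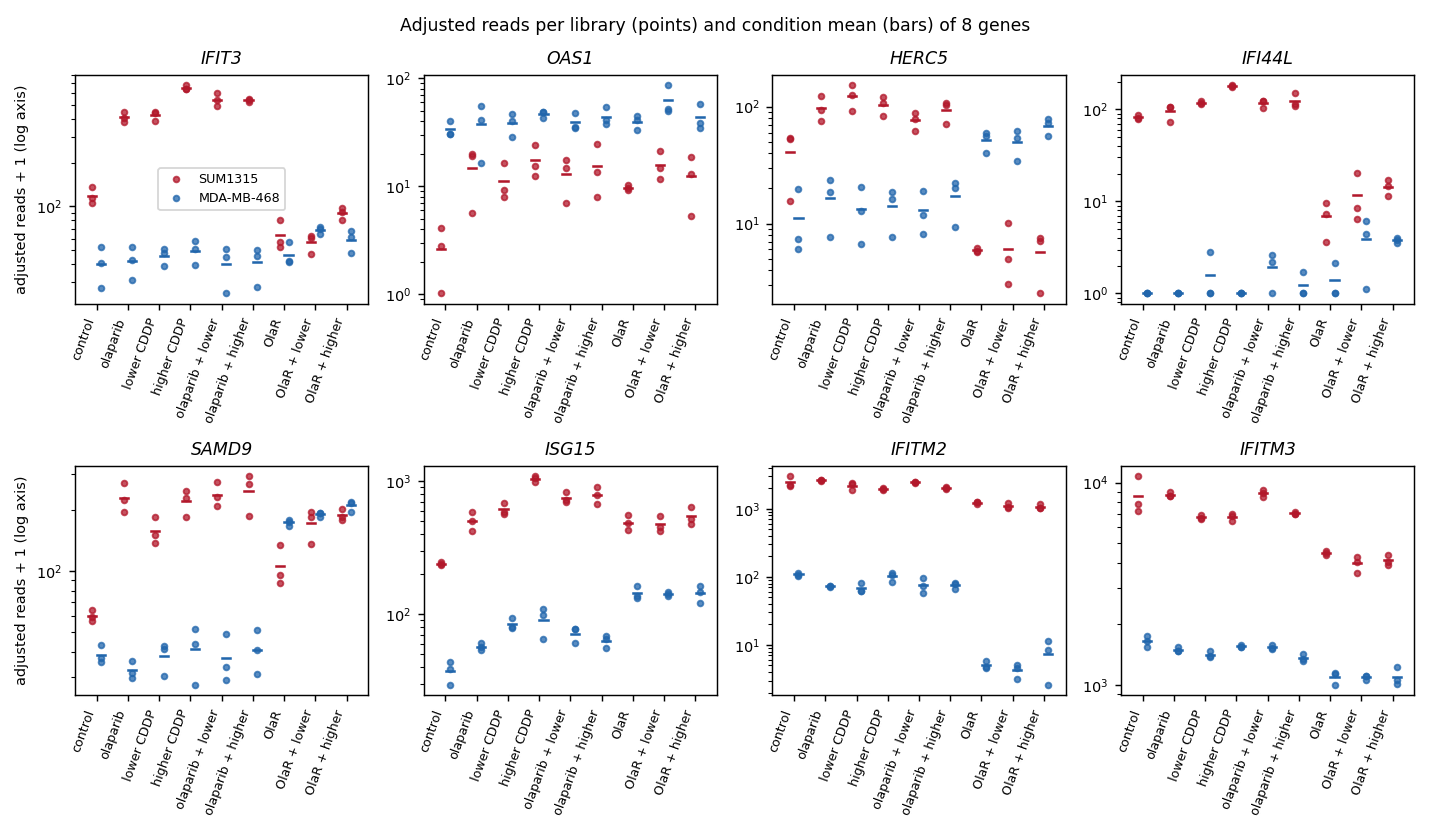
Adjusted reads plus 1 (log axis) of 8 members in every library (points) with the condition mean (bars) for SUM1315 (red) and MDA-MB-468 (blue), across the 9 conditions. IFIT3, HERC5 and IFI44L of SUM1315 sit lowest in the OlaR conditions, SAMD9 and ISG15 of MDA-MB-468 sit highest there, and IFITM2 of MDA-MB-468 drops from 107.6 in control to 4.05 in OlaR cells (means).

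OlaR SUM1315 cells were then set against olaparib-treated parental cells. None of the 38 tested members was called higher and 31 were called lower, where 21.6% and 25.7% of all genes were. By at least 2-fold, 23 members fell (9.06% of all genes), and the median log2 fold change was -1.24 over members and -0.05 over all genes. The sum without IFITM genes and BST2 was 2517 ± 141 adjusted reads in OlaR cells, below the 3555 ± 152 of untreated parental cells as well. Leaving out any single library left 27 to 30 members called, fewest without olaparib replicate 3. Marker lists moved with the same comparison: 4 of 6 tested epithelial markers were higher and 0 lower (summed 4026 to 4302 adjusted reads in OlaR libraries, 1263 to 1282 with olaparib), and 1 of 5 tested mesenchymal markers was higher and 4 lower (11370 to 12057 against 14939 to 15449). Leukocyte markers summed to 25.4 to 39.1 against 67.3 to 73.9. Their part in the result was not tested.

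RSAD2 (viperin), which makes a chain-terminating nucleotide against viral polymerases, had no read in any of the 3 OlaR libraries, while olaparib-treated cells held 27.98, 42.5 and 17.98 adjusted reads and control cells 17.97, 12.5 and 22.7. With a floor of 3 reads over the OlaR libraries it was at least 18.4-fold lower than with olaparib and at least 10.9-fold lower than in control. Its chromosome 2 neighbour CMPK2, a nucleotide kinase, had 1 read in OlaR and 31 in olaparib libraries, a ratio per depth of 0.0567 (95% exact interval 0.00139 to 0.340, counting error only). HERC5 held 4.75, 5.18 and 4.85 adjusted reads in OlaR cells, 3 reads in each library, against 122, 92.7 and 73.9 with olaparib (log2 fold change -4.01 ± 0.42 (SE), adjusted p = 2.04e-09). IFI44L held 8.71, 2.59 and 6.35 against 72.5, 104 and 105 (-3.88 ± 0.32 on the log2 scale), and its neighbour IFI44 26.4, 46.8 and 65.02 against 214, 208 and 258 (-2.36 ± 0.20). EPSTI1 held 6.01, 3.83 and 4.85 against 33.6, 28.7 and 39.97 (-2.58 ± 0.40). In HERC5, IFI44L, IFI44, EPSTI1 and RSAD2 all OlaR libraries lay below all olaparib libraries and below all control libraries (the groups did not overlap for 55.6% and 59.8% of all genes).

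DDX60, a helper of RNA sensing, held 20.04, 27.7 and 33.7 adjusted reads in OlaR cells, 190.5, 192 and 216 with olaparib and 173, 166 and 182 in control (log2 fold change -2.86 ± 0.21 (SE), adjusted p = 5.23e-13 against olaparib). OASL held 35.1, 32.8 and 50.5 in OlaR cells against 336, 341 and 328 with olaparib (-3.08 ± 0.15). IFIT2 held 27.8, 23.4 and 28.4 and IFIT3 55.5, 79.6 and 51.3 in OlaR cells, log2 fold changes of -3.32 ± 0.16 and -2.73 ± 0.15 against olaparib. The sensors DDX58 (RIG-I) and IFIH1 (MDA5) fell by 1.33 and 1.32 on the log2 scale, to 159 ± 9.25 and 43.4 ± 4.63 adjusted reads. All 4 transcription factors were lower, with log2 fold changes of -0.48 (STAT2), -0.86 (IRF1), -1.38 (IRF7) and -1.38 (IRF9). IRF9, with few reads, was not called when any of 4 libraries was left out or by edgeR (adjusted p = 0.0394 here).

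The other members called lower were IFIT1 (-2.23), XAF1 (-2.46), TRIM22 (-1.58), SAMD9L (-1.53), IFI27 (-1.40), HERC6 (-1.35), SAMD9 (-1.14), MX2 (-1.11), MX1 (-0.96), IFI6 (-0.79), OAS3 (-0.70), UBE2L6 (-0.68) and IFIT5 (-0.62, all log2). Of these, SAMD9 and OAS3 were still above untreated parental cells. STAT2 and IFI27 were not called without olaparib replicate 3, nor was STAT2 without OlaR replicate 3, and IFIT5 was not called when any of 3 libraries was left out.

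The IFITM genes, IFITM3 and IFITM1 among them the most abundant members in SUM1315, all fell. IFITM3 held 4481, 4564 and 4396 adjusted reads in OlaR cells, IFITM1 1728, 1719.9 and 1789.8 against 3809, 3648 and 4329 with olaparib, and the log2 fold changes were -1.17 ± 0.08 (IFITM1), -1.08 ± 0.10 (IFITM2) and -0.96 ± 0.10 (IFITM3). These genes share long stretches of sequence on chromosome 11 and how the authors' counting shared reads between them is not stated, so the values of single IFITM genes are uncertain.

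The 7 tested members not called against olaparib were OAS1, OAS2, ISG20, BST2, ISG15, USP18 and IFI35. ISG15 held 426, 484 and 554 adjusted reads in OlaR cells (log2 fold change -0.04, 95% interval -0.31 to 0.22) and BST2 2782, 2708 and 2884 (0.03, 95% interval -0.17 to 0.23). The interval of USP18 was wide, -1.32 to 1.25, at 8.53, 13.5 and 13.9 adjusted reads. Against untreated parental cells, 6 members were higher and 22 lower (26% and 28.7% of all genes), and 7 and 17 without control replicate 3. The 6 that were higher were OAS1 (2.10), ISG15 (1.02), OAS2 (0.99), SAMD9 (0.80), OAS3 (0.66) and BST2 (0.65, all on the log2 scale), so ISG15 and the OAS synthetases stood above untreated cells while HERC5, IFI44L, RSAD2 and OASL stood below them. The comparisons of OlaR with olaparib and of olaparib with control share the olaparib libraries, so each is given by its own values.

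**Figure D3:**
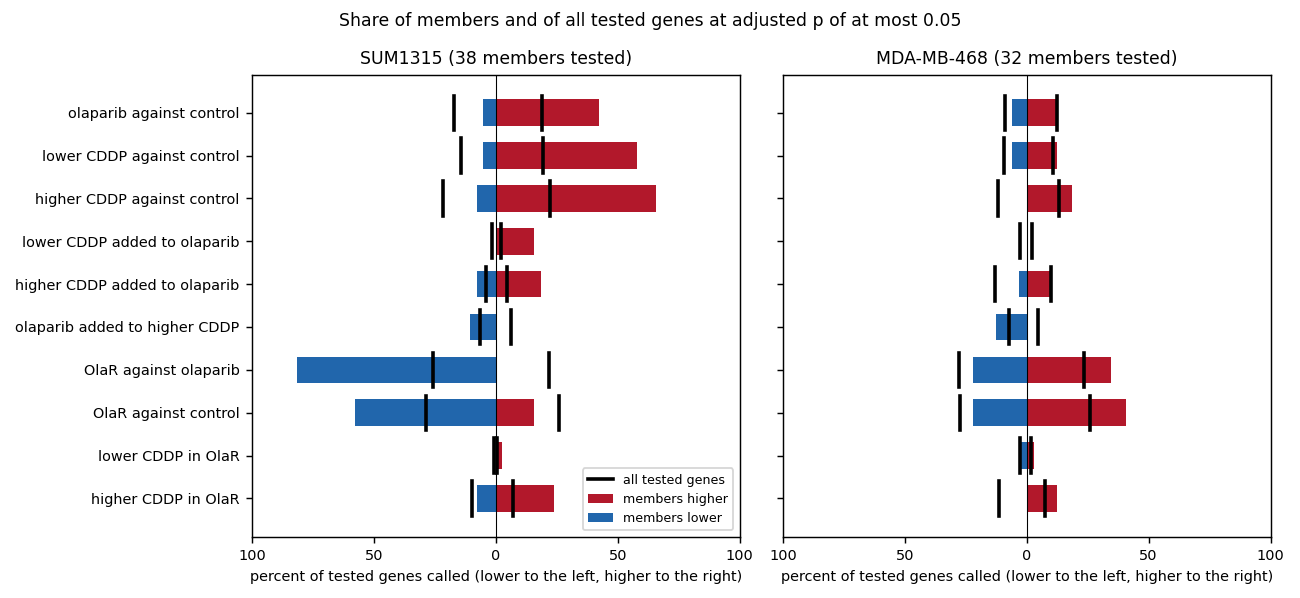
Share in percent of tested members called higher (red bars, to the right) and lower (blue bars, to the left) at adjusted p of at most 0.05 in 10 comparisons in each line, with the share of all tested genes as black marks (38 members tested in SUM1315, 32 in MDA-MB-468). In SUM1315 the bars pass the marks to the right after olaparib and CDDP and to the left in OlaR cells, and in MDA-MB-468 they stay near the marks after the drugs.

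CDDP, which crosslinks DNA, was set against the same control libraries of parental SUM1315 cells as olaparib. At 4 µM, 25 members rose and 3 fell (22.2% and 21.7% of all genes), with a median log2 fold change of 1.10 against -0.003099 over all genes. At 2 µM, 22 rose and 2 fell (19.4% and 14.5%). Without control replicate 3 the numbers were 23 and 1 at 4 µM and 21 and 1 at 2 µM, and leaving out 2 µM CDDP replicates 1, 2 or 3 left 24, 21 and 23 called at 2 µM. The sum without IFITM genes and BST2 was 6531 ± 273 adjusted reads at 2 µM and 8453 ± 233 at 4 µM. Epithelial markers summed to 1302 to 1463 adjusted reads at 4 µM, mesenchymal ones to 13399 to 13781 and leukocyte ones to 123 to 170.4, and their part was not tested.

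With 4 µM CDDP, ISG15 held 1090.0, 1062 and 978 adjusted reads (log2 fold change 2.12 ± 0.13 (SE), adjusted p = 1.32e-14 against control), the highest level of this gene in any condition. IFIT3 held 644, 682 and 637 and IFIT2 405, 345 and 308, log2 fold changes of 2.49 ± 0.15 and 2.62 ± 0.16. OAS1 held 11.4, 14.5 and 23.3 (2.89 ± 0.58) and OAS3 239, 287 and 221 (2.02 ± 0.20). IFI44 held 405, 390.3 and 404 (1.98 ± 0.20), IRF7 53.5, 45.4 and 72.2 (1.97 ± 0.32) and USP18 40.9, 25.7 and 4.61 (1.95 ± 0.63, adjusted p = 0.0123). In all of these genes but USP18, where 1 CDDP library lay within the control range, the 3 CDDP libraries lay above the 3 control libraries (the groups did not overlap for 52.8% of all genes). DDX58, ISG20 and IRF1 also rose, by 1.33 ± 0.09, 1.90 ± 0.21 and 0.44 ± 0.11 on the log2 scale, and none of these was called after olaparib alone, a difference between the drugs that was not itself tested. The members that fell were IFITM1, IFITM2 and IFITM3, by 0.36, 0.31 and 0.33 on the log2 scale. Without control replicate 3, IFITM2, IFITM3, HERC5 and TRIM22 were not called (adjusted p up to 0.188), and USP18 was not called when any of 3 libraries was left out.

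The effects of the drugs did not add up on the log2 scale. The interaction of olaparib with 4 µM CDDP was below 0 for 16 members and above 0 for none (11.6% and 9.92% of all genes), so the combination stood below the sum of the single log2 fold changes. Without control replicate 3 it was below 0 for 16 and above 0 for none. IFIT3, for example, held 542, 536 and 522 adjusted reads with olaparib and 4 µM CDDP (interaction -2.10 ± 0.21, adjusted p = 7.54e-09), and ISG15 899.8, 781 and 677 (interaction -1.48 ± 0.18, adjusted p = 4.14e-07). Adding 4 µM CDDP to olaparib raised 7 members and lowered 3 (4.35% and 4.09% of all genes), with IFI35 (0.88) and DDX58 (0.86) changing most among those that rose, and 5 members in all were called without olaparib replicate 1. Adding 2 µM raised 6 and lowered 0 (2.09% and 1.67%), and 2 were called without olaparib + 2 µM CDDP replicate 3. Each of these counts also fell by over 1.5 times when any of 3 other libraries was left out. Adding olaparib to 4 µM CDDP raised none and lowered 4 (6.32% and 6.52%): ISG20, IRF1, ISG15 and DDX58, with log2 fold changes of -0.84 to -0.35.

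In OlaR SUM1315 cells, CDDP was set against OlaR cells without it. With 4 µM, 9 rose and 3 fell (7.13% and 9.61% of all genes), and with 2 µM SAMD9 alone was called (0.71 ± 0.18, adjusted p = 0.0418; 0.548% of all genes were higher), with 0 to 3 members called when single libraries were left out. XAF1 (1.22), IFI44L (1.16) and IFI44 (1.04) had the largest rises at 4 µM, from a low base. The largest log2 change of any tested member at this dose was a fall (-1.56). IFI44 reached 101, 93.5 and 76.6 adjusted reads, against 372, 402 and 387 in parental cells with olaparib and 4 µM CDDP. BST2 fell, from 2782, 2708 and 2884 to 1614, 1679.9 and 1969.9, with IFI27 and IFITM1. With edgeR or DESeq2 on recovered reads, 6 and 7 members were called at 4 µM. The sum without IFITM genes and BST2 was 3006 ± 107 adjusted reads in OlaR cells with 4 µM CDDP, below the 3555 ± 152 of untreated parental cells. Whether CDDP acted differently in OlaR and olaparib-treated parental cells was tested as an interaction, and 3 members passed (4.41% of all genes lower, 1.99% higher): IFI35 (-1.31 ± 0.29, adjusted p = 0.0042), DDX58 (-0.52 ± 0.13, 0.015) and BST2 (-0.46 ± 0.14, 0.0407). IFI35 and DDX58 changed by -0.43 and 0.34 with 4 µM CDDP in OlaR cells and by 0.88 and 0.86 when it was added to olaparib in parental cells, and BST2 by -0.67 and -0.21.

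In parental MDA-MB-468 cells, olaparib changed few members. Of 32 tested, 4 rose and 2 fell, where 12.4% and 9.11% of all 13012 tested genes did, shares near those of the members, and the median log2 fold change was -0.08 over members and 0.01 over all genes. The split by direction moved with the test: a fit of only the groups compared called 1 member higher and 3 lower, edgeR 5 and 4, and DESeq2 5 and 5. ISG15 held 37.7, 42.7 and 28.4 adjusted reads in control and 60.2, 52.5 and 55.5 with olaparib (log2 fold change 0.63 ± 0.18 (SE), adjusted p = 0.00905). OAS3 held 93.2, 77.7 and 87.02 and 120.4, 137 and 146 (0.64 ± 0.14), and IFI35 held 32.98, 33.1 and 43.9 and 55.6, 51.9 and 57.3 (0.58 ± 0.21). In SUM1315, IFI35 was called lower after olaparib, but not without control replicate 3 of that line. IFIT1 held 5.48, 3.99 and 8.36 and 27.8, 15.1 and 11.5 (1.42 ± 0.41, adjusted p = 0.0079), few reads in either group. IFIT5 fell, from 83.4, 67.7 and 105 to 49.3, 57.01 and 46.4 (-0.72 ± 0.21), and BST2 fell, from 752, 857 and 837 to 676, 617 and 688 (-0.30 ± 0.09). IFIT2, IFIT3, OAS1 and SAMD9, among the members that rose most in SUM1315, were at 14.1 ± 1.98, 41.2 ± 10.6, 36.8 ± 19.6 and 31.3 ± 3.19 adjusted reads with olaparib and were not called. OAS3 was the only one of the 6 whose call was made whichever library was left out, and IFI35 lost its call without any of 5 libraries.

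With 2.5 µM CDDP, 6 members rose and none fell (13.3% and 11.8% of all genes). ISG15 held 64.02, 96.9 and 108 adjusted reads (log2 fold change 1.27 ± 0.18 (SE), adjusted p = 3.77e-07), OAS3 139, 144 and 127 (0.67 ± 0.14) and IFI35 59.3, 49.97 and 75.2 (0.72 ± 0.21). IFI6, a mitochondrial protein that counters apoptosis, held 33.1, 14.5 and 27.3 in control and 43.1, 42.5 and 47.3 with CDDP (0.88 ± 0.24). USP18 held 38.4, 25.6 and 32.1 and 40.5, 53.9 and 67.5 (0.72 ± 0.24), and IRF1, the transcription factor, 146, 178 and 122 and 201, 176 and 199.98 (0.39 ± 0.13). Without 2.5 µM CDDP replicate 3, IFI35, USP18 and IRF1 were not called. UBE2L6, with IFITM3 and BST2 among the 3 most abundant members in this line, was not called and held 299.96, 332 and 406 in control and 377, 346 and 391 with CDDP. With 1 µM, 4 rose and 2 fell (10.6% and 9.41%), and 3 members in all were called without control replicate 2. Adding 2.5 µM CDDP to olaparib raised 3 members, IFI6, IFIT5 and OAS3, and lowered EPSTI1 (10.1% and 13.1%), and 2 members were called without olaparib + 2.5 µM CDDP replicate 3 or olaparib replicate 3. Adding 1 µM changed none in the limma test (2.3% and 2.97% of all genes), with 1 member at an unadjusted p under 0.05. Adding olaparib to 2.5 µM CDDP raised none and lowered EPSTI1, BST2, IFITM1 and IFITM3 (4.63% and 7.29%), with 1 to 3 members called when any library was left out, and edgeR and DESeq2 called 1 member higher. The interaction of olaparib with 2.5 µM CDDP was above 0 for IFIT5 (1.10) and below 0 for EPSTI1 (-3.23), IFIT1 (-1.59), ISG15 (-1.13) and BST2 (-0.33, all log2; 8.14% and 12% of all genes were above and below 0). For this interaction, 2 to 5 members were called when single libraries were left out, fewest without olaparib + 2.5 µM CDDP replicate 3, and 5 of the 12 libraries moved the count by over 1.5 times.

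In OlaR MDA-MB-468 cells the members moved in both directions. Against olaparib-treated parental cells, 11 of 32 members were higher and 7 lower (23.6% and 27.9% of all genes), and 8 and 2 by at least 2-fold (7.13% and 7.12%). The median log2 fold change was 0.20 over members and -0.03 over all genes, and the sum without IFITM genes and BST2 was 1903 ± 45.3 adjusted reads against 1491 ± 106 with olaparib and 1449 ± 77.1 in control. Epithelial markers moved with it (4 of 8 tested higher, 1 lower, summed 13017 to 13429 against 7535 to 8041), and leukocyte markers summed to 5.09 to 9.63 against 25.8 to 39.1 with CD3E at 0 reads in the line. Mesenchymal markers summed to 94.8 to 107 against 94.2 to 98.2, with FN1 higher (53.3 ± 5.08 against 17.7 ± 3.10) and VIM (18.6 ± 5.90 against 35.8 ± 4.89) and COL1A1 (27.9 ± 2.25 against 43.3 ± 7.14) lower. Of the receptor genes behind the triple negative label, ESR1 was higher (216 ± 6.88 against 40.3 ± 9.55) and ERBB2 lower (11.3 ± 5.54 against 25.8 ± 8.35). Neither was called in the same comparison in SUM1315. The part of all these markers in the result was not tested.

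SAMD9 held 178, 166 and 175 adjusted reads in OlaR cells against 34.8, 28.6 and 30.5 with olaparib and 36.003, 34.6 and 42.1 in control (log2 fold change 2.43 ± 0.22 (SE), adjusted p = 7.42e-14 against olaparib). SAMD9L held 12.1, 15.8 and 14.5 against 0, 4.96 and 10.3 (1.89 ± 0.72, adjusted p = 0.0246), the olaparib library at 0 having 1 read before adjustment, and was not called when any of 3 libraries was left out or by DESeq2. HERC5, down to 3 reads a library in OlaR SUM1315 cells, held 38.95, 54.9 and 58.9 in OlaR MDA-MB-468 cells against 17.5, 6.69 and 22.4 with olaparib (1.78 ± 0.44), and its neighbour and paralogue HERC6 rose by 1.01 ± 0.36 on the log2 scale. ISG15 held 136, 132 and 161 against 60.2, 52.5 and 55.5 (log2 fold change 1.33 ± 0.18 (SE), adjusted p = 2.07e-08). IFI6 held 102, 97.2 and 109 against 20.99, 29.3 and 27.5 (1.95 ± 0.24), and IFI44 17.5, 11.2 and 8.81 against 0.426, 3.14 and 0 (2.85 ± 0.73), 31 reads against 5 in all. ISG20, BST2, IRF1 and UBE2L6 rose too, with log2 fold changes of 1.30, 0.67, 0.54 and 0.27. HERC6 and UBE2L6 were not called when any of 3 libraries was left out. BST2 held 1092, 1039.5 and 1024 adjusted reads.

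The members that fell were led by IFITM2, which held 3.64, 3.73 and 4.79 adjusted reads in OlaR MDA-MB-468 cells, 70.02, 71.9 and 73.3 with olaparib and 103, 114 and 105 in control (log2 fold change -3.85 ± 0.32 (SE), adjusted p = 7.49e-15 against olaparib). The OlaR libraries with either CDDP dose were as low, at 3.58, 4.03 and 2.18 (1 µM) and 7.39, 1.6001 and 10.4 (2.5 µM). IFITM1 and IFITM3 fell by much less, 0.38 and 0.45 on the log2 scale, with IFITM3 at 1141, 1135 and 999.9 against 1471, 1539 and 1472. IRF7 held 28.6, 27.1 and 26.7 against 114, 82.9 and 60.7 (-1.56 ± 0.22). IFIH1, DDX58 and STAT2 were also lower, by 0.64 (DDX58) to 0.72 (STAT2) on the log2 scale, and DDX58 was not called when any of 3 libraries was left out or by DESeq2. The IFIT and OAS genes were not called against olaparib, from -0.09 (IFIT1) to 1.01 (OASL), and neither were DDX60, IRF9, MX1, TRIM22, USP18, IFI35 and EPSTI1. Against control, 13 members were higher and 7 lower (26% and 27.5% of all genes).

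**Figure D4:**
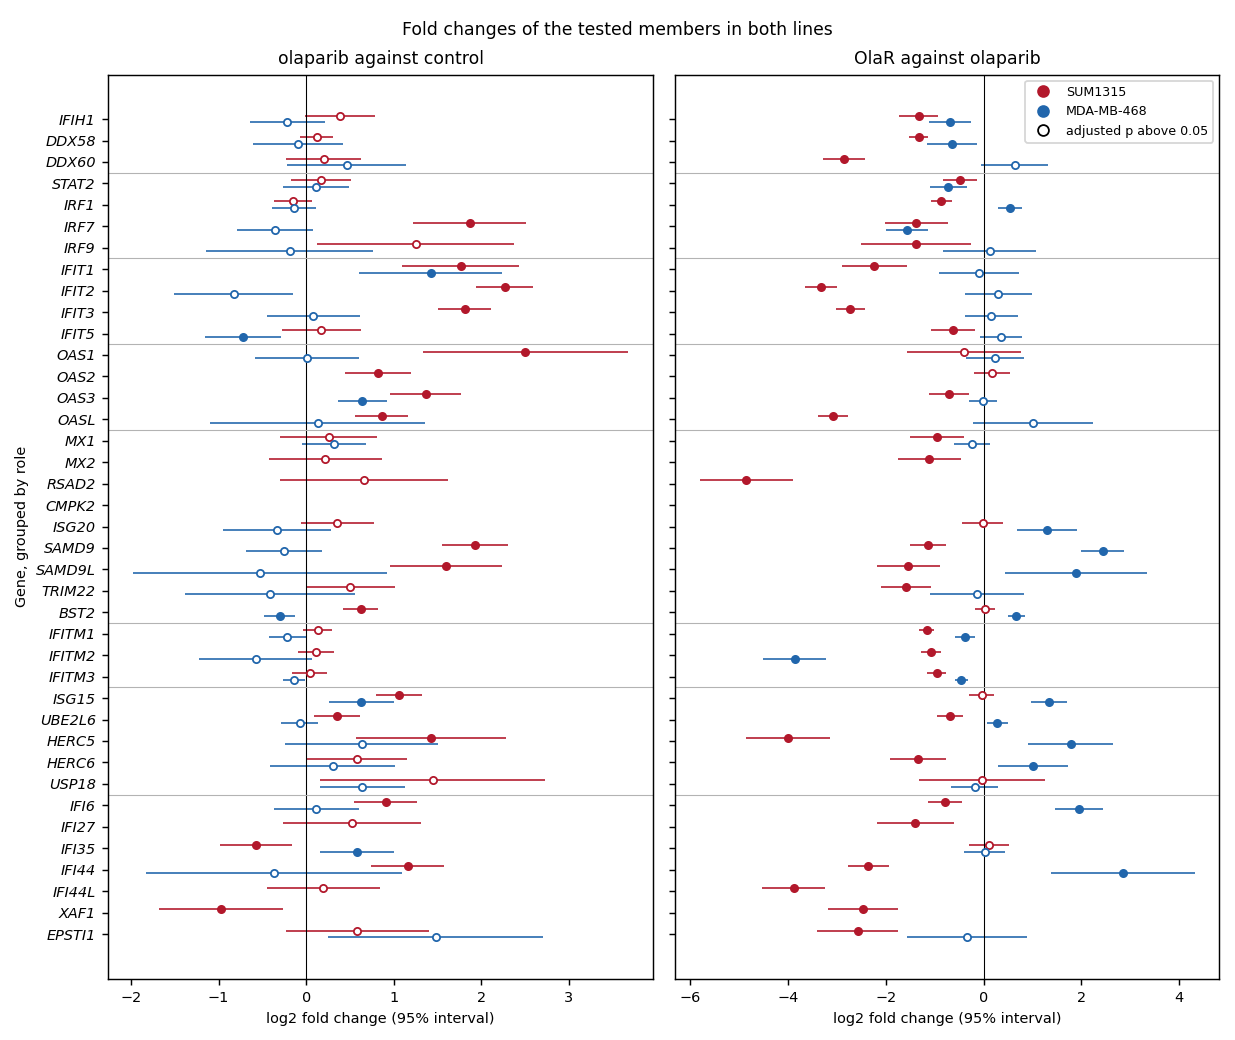
Log2 fold change with its 95% interval of every tested member after olaparib (left) and in OlaR cells against olaparib (right), in SUM1315 (red) and MDA-MB-468 (blue), with open points at adjusted p above 0.05. On the left, SUM1315 points of IFIT1, IFIT2, IFIT3 and the OAS and SAMD9 genes lie to the right of 0, and on the right no SUM1315 point above 0 is filled and the filled ones reach down to -4.85 for RSAD2, whose OlaR libraries held no read, while MDA-MB-468 points spread from -3.85 (IFITM2) to 2.85 (IFI44).

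CDDP moved few members in OlaR MDA-MB-468 cells. At 2.5 µM, 4 rose and none fell (7.43% and 11.2% of all genes): IFI35 (0.79), IRF7 (0.61), OAS3 (0.57) and IRF1 (0.37, all log2), with 2 members called when OlaR replicate 1 or 2 was left out. At 1 µM, IFITM1 rose and BST2 fell, and both calls or 1 of them were lost when any of 5 libraries was left out (1.84% and 2.91% of all genes were higher and lower). ISG15 stayed between 119.8 and 162 adjusted reads with 2.5 µM, around its level in OlaR cells. The interaction of CDDP with OlaR passed for none of the 32 members in the limma test (7.58% above 0 and 7.47% below 0 of all genes), with 3 at an unadjusted p under 0.05.

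The lines were compared through their changes, since which libraries shared a sequencing batch is not stated. The difference between the lines in the change (SUM1315 minus MDA-MB-468) was tested in a fit of all 54 libraries with 14460 genes. After olaparib it was above 0 for 9 members and below 0 for 1 of 38 (9.99% and 9.89% of all genes), with IFIT2 (3.09 ± 0.35, adjusted p = 4.28e-09), OAS1 (2.50 ± 0.67, 0.00512), IRF7 (2.22 ± 0.39) and SAMD9 (2.19 ± 0.29) in front and IFI35 (-1.16 ± 0.28) the exception. The olaparib doses differ between the lines (8 and 3 µM), as do the CDDP and OlaR doses, so line and dose cannot be told apart. For OlaR against olaparib it was above 0 for 1, IFITM2 (2.77 ± 0.34), and below 0 for 26 (20.3% and 21.4% of all genes). The differences were -5.78 ± 0.68 for HERC5 (adjusted p = 1.78e-09), -5.21 ± 0.67 for IFI44, -3.57 ± 0.29 for SAMD9 and -3.43 ± 0.91 for SAMD9L, genes called lower in OlaR SUM1315 and higher in OlaR MDA-MB-468 cells. Those of RSAD2, IFI44L and XAF1 rest on SUM1315, since these genes did not pass the filter in MDA-MB-468, and the XAF1 difference was not called by edgeR or DESeq2. For the higher CDDP doses (4 and 2.5 µM) it was above 0 for 12 and below 0 for 1 (13.7% and 13.9%), with IFIT2 (2.98 ± 0.35) in front. Without SUM1315 control replicate 3 the counts were 9 and 1 after olaparib and 12 and 1 for the higher CDDP doses.

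Other genes of the pathway were counted from lists grouped by function and chosen with earlier results of these data known, so the counts describe these lists only. No interferon gene of 9 listed reached a mean of 10 adjusted reads in either line, and IFNA1 and IFNA2 had no read in either. IFNL1, a type III interferon, had in SUM1315 no read over the 3 control libraries, 8 with 2 µM CDDP (at least 2.24-fold higher) and 22 with 4 µM (at least 6.98-fold higher, with a floor of 3 reads over the control libraries), and up to 9.89 adjusted reads in a single library. It had 2 reads with olaparib and 15 with olaparib and 4 µM CDDP (ratio per depth 7.15, 95% exact interval 1.66 to 64.4), and none in OlaR cells.

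The counts of these lists are read against the shares of all genes in SUM1315, 18.9% higher and 17.1% lower after olaparib and 21.6% and 25.7% for OlaR against olaparib. Of 6 tested receptor chains, 2 were called higher after olaparib, 1 of them (IFNGR1) also without control replicate 3, and 3 fell in OlaR cells against olaparib, where none rose. Of 12 tested signalling genes, 4 rose and none fell after olaparib, and 4 were higher and 6 lower in OlaR cells. Of 17 tested genes of nucleic acid sensing, 8 rose and none fell, and 4 were higher and 8 lower in OlaR cells. Of 37 other interferon-responsive genes, 6 rose and 5 fell after olaparib, shares near those of all genes, and 2 were higher and 26 lower in OlaR cells. Without control replicate 3, the counts after olaparib were 4 and 0 for signalling, 8 and 0 for sensing and 7 and 4 for the other responsive genes. In MDA-MB-468 the counts for OlaR against olaparib were 1 higher and 1 lower of 6 receptors, 3 and 2 of 13 signalling genes, 3 and 3 of 15 sensing genes, and 15 and 7 of 33 other responsive genes, where 23.6% and 27.9% of all genes were.

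The sensor cGAS and its partner STING are listed in the table under the older symbols MB21D1 and TMEM173. In SUM1315, TMEM173 held 40.03 ± 9.67 adjusted reads in control, 92.9 ± 5.73 with olaparib (log2 fold change 1.22 ± 0.23, adjusted p = 6.81e-05) and 46.8 ± 6.97 in OlaR cells (-0.98 ± 0.23 against olaparib). MB21D1 was not called in either comparison, at 51.1 ± 12.1, 51.9 ± 14.2 and 67.1 ± 7.23 adjusted reads. In MDA-MB-468, TMEM173 was not called, at 70.3 ± 1.48, 60.4 ± 13.02 and 80.8 ± 12.5, and MB21D1 stayed below the filter, with 2 reads over the control libraries and 12 over the OlaR libraries. Both genes were chosen after their values were seen.

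After olaparib in SUM1315 the largest changes in these lists were in SOCS1 (75.99 ± 50.6 adjusted reads in control, 239 ± 76.4 with olaparib, log2 fold change 1.92 ± 0.33) and SOCS3 (1.77 ± 0.22), which block JAK kinases, and in TLR3 (1.38 ± 0.41), an endosomal sensor of double-stranded RNA. Without control replicate 3 these stood at 1.16 ± 0.22 for SOCS1, 1.48 ± 0.22 for SOCS3 and 1.69 ± 0.45 for TLR3, each still called. In that fit TMEM173 (1.38) and TREX1 (1.37) changed more than SOCS1, so the rank of SOCS1 rested on control replicate 3. In OlaR SUM1315 cells they were in GBP4, an interferon-induced GTPase at 7.45 ± 6.501 adjusted reads against 161 ± 18.8 with olaparib (-4.73 ± 0.39), in LGALS9 (galectin-9), with no read in OlaR cells and at least 7.20-fold lower than with olaparib, and in RTP4, with 1 read against 66 (ratio per depth 0.0266, 95% exact interval 0.000665 to 0.154). Outside that rule and chosen after their values were seen, JAK2, the kinase of the interferon gamma receptor, held 32.1 ± 18.7 against 270.04 ± 36.1 (-3.17 ± 0.24) and the receptor chain IFNGR2 changed by -1.61 ± 0.17. The chemokines CXCL10 and CXCL11, chosen likewise, held 158 ± 6.66 and 323 ± 31.96 in OlaR cells against 1102 ± 57.02 and 1875 ± 178 with olaparib. In MDA-MB-468 the largest changes after olaparib were falls, in LGALS9 (-1.03 ± 0.37), GBP2 (-0.94 ± 0.30) and IFNGR1 (-0.84 ± 0.12). In OlaR MDA-MB-468 cells they were in IFI16, a DNA sensor with 1 read against 75 with olaparib (ratio per depth 0.0234, 95% exact interval 0.000586 to 0.135), in TLR3 (20.6 ± 1.74 against 1.64 ± 2.02, 3.32 ± 0.61) and in APOL1 (193 ± 13.01 against 21.3 ± 6.08, 3.15 ± 0.27). TLR3 and APOL1 were lower in OlaR SUM1315 and higher in OlaR MDA-MB-468 cells, and the difference between the lines was not tested for them.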

How the data were processed

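Poly(A) RNA of 54 libraries (2 lines, 9 conditions each, 3 libraries a condition) was measured with QuantSeq 3′ mRNA FWD sequencing in 50 bp reads, multiplexed in batches of 27 whose members are not stated. The submitters' processing notes list CASAVA 1.8.2, FastQC, STAR, HTSeq, edgeR and the hg38 build. The values the authors deposited are a signal, reads per gene adjusted to a common library size of 5585170, and the whole reads behind all 1483380 values could be recovered from them. Tables with the authors' own comparisons (log2 fold changes, p-values and FDR against untreated parental cells) were not used.

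Groups were taken from the sample labels. Genes with at least 10 adjusted reads in at least 3 libraries were tested with limma 3.58.1 (intensity trend, R 4.3.3) on log2(adjusted reads + 1), with the 27 libraries of a line, or all 54 between lines, in 1 fit and Benjamini-Hochberg adjustment over all genes tested (13012, 13133 and 14460). Alternatives were edgeR 4.0.16 and DESeq2 1.42.0 on recovered reads, other scalings, pseudocounts and filters, fits of only the groups compared, a replicate block, and leaving out each library in turn. The pathway and marker lists were also counted without SUM1315 control replicate 3, a choice made after seeing the data. Fold bounds use a floor of 3 reads over the libraries of a group, and ratios of few reads have exact 95% intervals for counting error. The scripts were tested on simulated data. The 39 members, the pathway lists and the marker lists were chosen with earlier results of these data known, so members called are a description of these lists. Values of single libraries are given for up to 8 called members with the largest change per line in olaparib against control, OlaR against olaparib and higher CDDP against control (group mean of at least 10) and for the 3 most abundant members of each line, and for each set of pathway lists the 3 called genes with the largest change are named. Promoter sequences and gene positions came from RefSeq (GRCh38.p14). Replicate numbers did not pair libraries.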

Additional observations from a re-analysis of the deposited data

Results flagged for a closer look

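Differences of the CDDP effect between OlaR and olaparib-treated parental cells, and of changes between the lines, are listed here. Of these, 53 passed their own limma test at an adjusted p of at most 0.05, and are given as differences of log2 fold changes. The olaparib by CDDP interaction, called for 16 members in SUM1315 and 5 in MDA-MB-468, is given above and not counted here. In SUM1315, the effect of 4 µM CDDP was lower in OlaR cells than in olaparib-treated parental cells for DDX58 (-0.52), BST2 (-0.46) and IFI35 (-1.31).

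The olaparib effect was higher in SUM1315 than in MDA-MB-468 for 9 members: IRF7 (2.22), IFIT2 (3.09), IFIT3 (1.73), IFIT5 (0.89), OAS1 (2.50), OAS3 (0.72), SAMD9 (2.19), BST2 (0.93) and IFITM1 (0.35). It was lower for IFI35 (-1.16). IFIT5, OAS3 and IFITM1 lost this call when any of 6 to 8 libraries was left out.

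The change from olaparib to OlaR was higher in SUM1315 for IFITM2 (2.77), where the fall in MDA-MB-468 was the larger. It was lower for 26 members. For the RNA sensors, transcription factors, IFIT and OAS genes these were DDX58 (-0.68), DDX60 (-3.49), IRF1 (-1.41), IFIT1 (-2.14), IFIT2 (-3.63), IFIT3 (-2.89), IFIT5 (-0.98), OAS3 (-0.69) and OASL (-4.09). For the other antiviral effectors they were RSAD2 (-5.46), ISG20 (-1.31), SAMD9 (-3.57), SAMD9L (-3.43), TRIM22 (-1.44) and BST2 (-0.64). For the IFITM genes and the ISG15 group they were IFITM1 (-0.78), IFITM3 (-0.50), ISG15 (-1.37), UBE2L6 (-0.96), HERC5 (-5.78) and HERC6 (-2.36). For the remaining interferon-induced genes they were IFI6 (-2.74), IFI44 (-5.21), IFI44L (-4.27), XAF1 (-2.65) and EPSTI1 (-2.23). The genes that did not pass the filter in MDA-MB-468 enter with values near 0 in that line.

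The effect of the higher CDDP dose was higher in SUM1315 for 12 members: DDX58 (1.31), IRF7 (2.01), IFIT2 (2.98), IFIT3 (2.15), IFIT5 (0.85), OAS1 (2.40), OAS3 (1.35), ISG20 (2.26), SAMD9 (1.83), ISG15 (0.85), UBE2L6 (0.83) and IFI44 (1.93). It was lower for IFITM1 (-0.41). Doses differ between the lines in each of these comparisons, and their part was not tested.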

How the results depend on the processing

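Of 306 calls of single members over all comparisons, 213 kept their direction and side of the threshold in every other setting, 93 were lost in at least 1, and none reversed. Of 216 counts of called members under 8 other settings, 197 stayed within 1.5 times. The cause was not tested for the following. After olaparib in MDA-MB-468, DESeq2 called 10 members (6 by limma). A fit of only the groups compared called 3 after 2.5 µM CDDP in MDA-MB-468 (6), 1 after 1 µM CDDP in OlaR MDA-MB-468 (2), 3 for 2 µM CDDP added to olaparib in SUM1315 (6), and 0 and 5 after 2 and 4 µM CDDP in OlaR SUM1315 (1 and 12). Without a filter on low values, 1 was called for olaparib added to 2.5 µM CDDP (4), 0 for 1 µM CDDP in OlaR (2) and 3 for the olaparib by CDDP interaction (5) in MDA-MB-468, and 0 for 2 µM CDDP in OlaR SUM1315. On recovered reads, edgeR with either scaling called 1 after 1 µM CDDP in OlaR MDA-MB-468 and 6 after 4 µM CDDP in OlaR SUM1315, where DESeq2 called 7, and all of these called 0 after 2 µM there. With a pseudocount of 5, 16 members differed between lines in the olaparib effect (10).

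Leaving out each library in turn gave, in MDA-MB-468, 4 to 6 members called after olaparib, 3 to 5 after 1 µM CDDP (3 without control replicate 2), 3 to 6 after 2.5 µM (3 without 2.5 µM CDDP replicate 3), 0 to 0 and 2 to 5 for 1 and 2.5 µM added to olaparib (2 without olaparib + 2.5 µM CDDP replicate 3 or olaparib replicate 3), 1 to 3 for olaparib added to 2.5 µM CDDP, 15 to 17 and 18 to 21 for OlaR against olaparib and control, 0 to 2 and 2 to 4 for 1 and 2.5 µM CDDP in OlaR (2 without OlaR replicate 1 or 2), 0 to 1 for the CDDP by OlaR interaction (1 without olaparib replicate 2) and 2 to 5 for the olaparib by CDDP interaction. In SUM1315 it gave 16 to 18 after olaparib, 21 to 24 and 24 to 30 after 2 and 4 µM CDDP, 2 to 5 for 2 µM added to olaparib and 5 to 9 for 4 µM (least without olaparib + 2 µM CDDP replicate 3 and olaparib replicate 1), 3 to 4 for olaparib added to 4 µM CDDP, 27 to 30 and 23 to 30 for OlaR against olaparib and control, 0 to 3 and 9 to 11 for 2 and 4 µM CDDP in OlaR, 2 to 3 for the CDDP by OlaR interaction and 14 to 17 for the olaparib by CDDP interaction. Between lines it gave 8 to 13, 25 to 28 and 11 to 14. Counts moved by over 1.5 times without 2.5 µM CDDP replicates 2 or 3 or any olaparib + 2.5 µM CDDP library (olaparib added to 2.5 µM CDDP), without any OlaR library or OlaR + 1 µM CDDP replicates 1 or 2 (1 µM CDDP in OlaR MDA-MB-468), without 2.5 µM CDDP replicate 2, olaparib replicate 1, olaparib + 2.5 µM CDDP replicates 1 or 3 or control replicate 1 (the olaparib by CDDP interaction in MDA-MB-468), without olaparib replicates 1 or 2 or 2 of the olaparib + CDDP libraries (CDDP added to olaparib in SUM1315), and without any OlaR library or OlaR + 2 µM CDDP replicates 2 or 3 (2 µM CDDP in OlaR SUM1315).

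Libraries with the same replicate number did not deviate together (correlations -0.0977 to 0.163 over 108 pairs in SUM1315, -0.0468 to 0.0426 in MDA-MB-468). With the replicate number as a block, 18 members were called after olaparib and 31 for OlaR against olaparib in SUM1315, and 6 and 18 in MDA-MB-468. The block moved no total count by over 1.5 times, but for olaparib added to 2.5 µM CDDP in MDA-MB-468 it called 1 member higher and 2 lower (0 and 4 without it, 2 shared). Depth limits the members of few reads, above all in the shallower OlaR libraries.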
